A study of Rattus norvegicus with 6 samples.

Results

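Semaphorins, ephrins, Slits and netrins are the classical guidance cues, and their receptors read them at the cell membrane. The genes of these families were taken from the count table of VSM cells cultured from the soleus feed artery (SFA), which supplies the soleus muscle. A gene was a member when its symbol belonged to the semaphorins of classes 3 to 7, the plexins, Nrp1 or Nrp2, the ephrins, the Eph receptors, the Slits, Robo1 to Robo4, the netrins, the Unc5 receptors, Dcc or Neo1. This symbol rule took 57 of the 14475 genes. One of them, Unc50, shares only the first letters of its name with the Unc5 receptors and is not a guidance gene, which left 56. RefSeq lists 72 rat protein-coding symbols of this kind, and the 15 without a row in the table, among them Dcc, Plxnd1, Robo4, Efnb3, Ephb1 and Slit1, were not analysed here. Young VSM cells came from male Fischer 344 rats of 4 months and old VSM cells from those of 24 months, with 3 rats and 3 libraries per age group. The cells were grown in medium with serum, and no treatment is named. The libraries held 44235674 to 59700887 counts.

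Semaphorins signal through plexins, and most of class 3 need a neuropilin as the ligand-binding coreceptor. Ephrins are membrane-bound ligands of the Eph receptor tyrosine kinases, so the signal needs cell contact and can run into both cells. Slits act through Robo receptors, and netrins through Dcc, neogenin (Neo1) and the Unc5 receptors. Most of these pathways end on small GTPases and the actin cytoskeleton, and in vessels they are known for roles in branching, in arterial and venous identity and in the coverage of vessels by mural cells.

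The question was which guidance genes differ between young and old VSM cells. The clearest differences were in the Eph receptors and in a netrin. Epha2 and Epha3 were lower in old VSM cells by 2.21-fold each in mean level, Ephb2 was 2.37-fold higher, and Ntn4 was 3.02-fold lower. Semaphorins, plexins, neuropilins, Slits and Robo receptors were mostly higher in old VSM cells, but with large differences between the old libraries. In a bulk culture, fewer cells of a type and less RNA per cell cannot be told apart.

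With edgeR's quasi-likelihood test, adjusted over all genes, 0 of the 57 members passed both limits (adjusted p under 0.05, and a log2FC, the log2 fold change of old over young, of 1 or more in either direction). Of all genes 1 passed (0.00691%), Afap1l2, which is no guidance gene. The lowest adjusted p of a member was 0.0557. The DESeq2 Wald test, which is the test of the study, called Epha2, Epha3, Ephb2 and Ntn4 at the same thresholds. These were 4 of 57 members (7.02%) compared with 5.56% of all genes. The single member called higher in old (1.75%) stood beside 2.25% of all genes, and the 3 called lower (5.26%) beside 3.31%. limma-voom called 0 members, with 12 at an unadjusted p under 0.05. At an unadjusted p under 0.05 in edgeR, 8 members were higher in old (14.0%, against 11.2% of all genes) and 6 were lower (10.5%, against 11.5%). In 7 members the 3 old libraries all lay above the 3 young libraries (12.3%, against 14.5% of all genes), and in 6 they all lay below (10.5%, against 14.7%). By these counts the guidance genes as a whole stood close to the rest of the table.

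The size of the differences was another matter. A log2FC of 1 or more was found for 9 members that were higher (15.8%, against 5.07% of all genes) and of -1 or less for 5 that were lower (8.77%, against 6.34%). Of these 14 members, 11 had a mean under 10 CPM (counts scaled to the normalized library size), 8 had age groups that overlapped, and 7 had an unadjusted p under 0.05. The matching shares among the 1652 genes with a log2FC of that size are not given here. The 3 counts are thus not read as particular to the members. The median absolute log2FC was 0.55 in the members and 0.26 in all genes. The spread between replicates was also wider. Above a mean of 1 CPM, the coefficient of variation had a median of 20.3% among the young and 32.8% among the old replicates for 48 members, compared with 9.94% and 14.6% for the 12257 such genes. These 48 members also had a lower level, with a median of 14.5 CPM compared with 24.6 CPM for such genes. The members thus showed larger differences and a larger spread side by side, at a lower level. The part of the level in both was not tested.

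**Figure D1:**
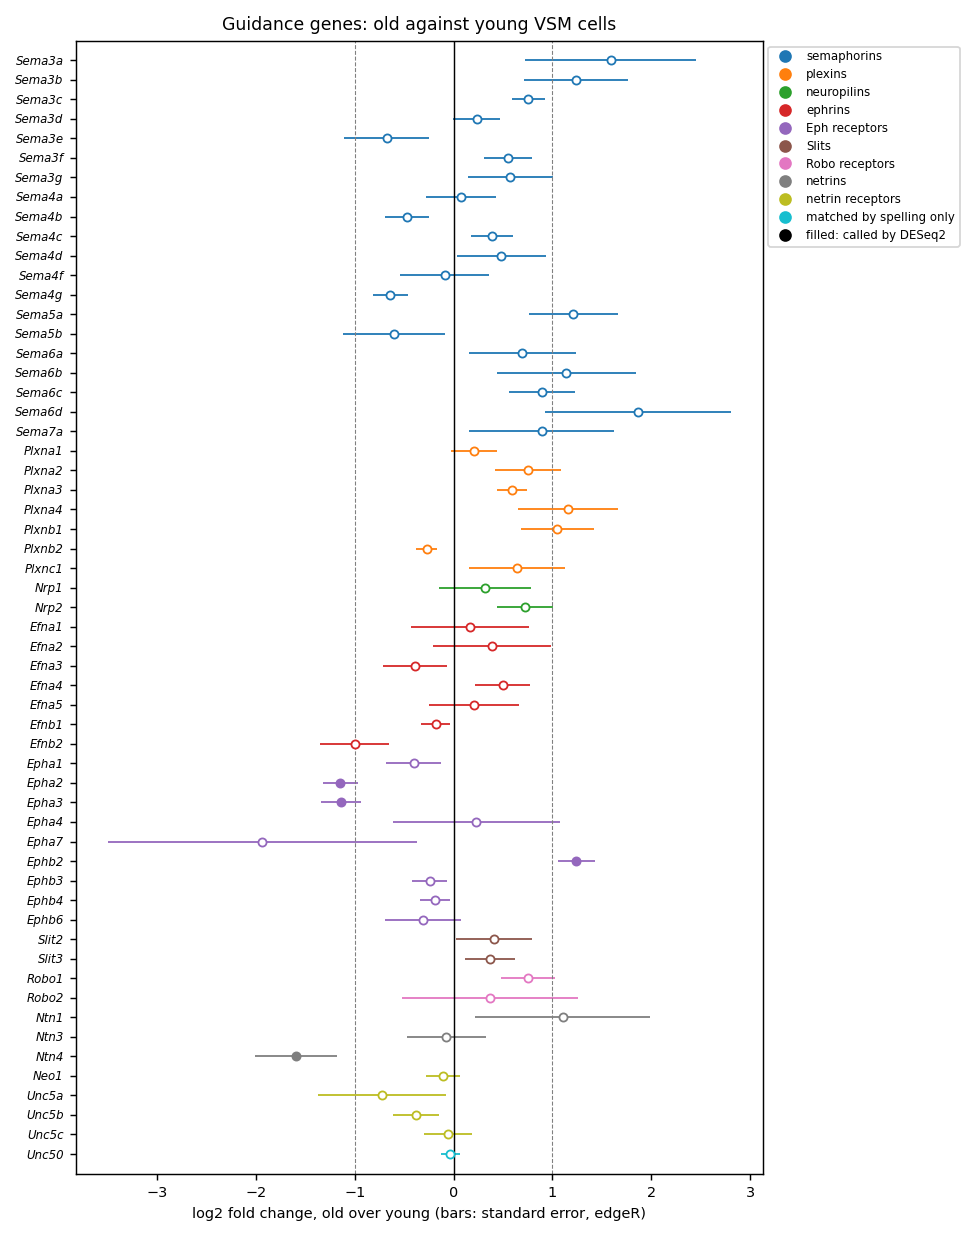
Log2 fold change of old over young VSM cells (horizontal axis) for each of the 57 genes taken by the symbol rule, colored by family, with standard errors from edgeR, dashed lines at -1 and 1 and filled points for the genes called by DESeq2. Epha2, Epha3 and Ntn4 lie to the left of -1 and Ephb2 to the right of 1 with short error bars, while Epha7, Sema6d and Sema3a have wide ones.

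The Eph receptors are receptor tyrosine kinases whose class A members mainly bind the GPI-anchored ephrin-A ligands and whose class B members mainly bind the transmembrane ephrin-B ligands. In old VSM cells 7 of the 9 Eph receptors in the table were lower (77.78%, against 47.95% of all genes) and 2 were higher. Their median log2FC was -0.31, and that of all genes 0.02. DESeq2 called 3 of the 9, beside 5.56% of all genes. No family was tested as a set. Epha2 (ENSRNOG00000009222) encodes the receptor best known in epithelia and endothelium. It had 13.0, 13.4 and 9.73 CPM in the young libraries and 5.91, 5.69 and 4.76 CPM in the old libraries, so that the groups did not overlap and each old library had about the same level. The log2FC of Epha2 was -1.15 ± 0.18 (SE), with an adjusted p of 0.0574 in edgeR's quasi-likelihood test and of 1.94e-06 in DESeq2.

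Epha3 (ENSRNOG00000030285) encodes a receptor for ephrin-A ligands with a known role in mesenchymal cells. Its levels were 6.47, 6.90 and 6.21 CPM in young and 2.43, 2.83 and 3.60 CPM in old. The young libraries were nearly equal to each other, and the highest old library was well below the lowest young library. For Epha3 the log2FC was -1.14 ± 0.20 (SE), with an adjusted p of 0.0644 in edgeR and of 7.45e-06 in DESeq2.

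Ephb2 (ENSRNOG00000012531), a class B receptor, went the other way. Its reads were few: the young libraries held 117, 128 and 132 counts and the old ones 270, 291 and 348. The mean level was 2.47 CPM in young (SD 0.299, n = 3) and 5.84 CPM in old (SD 0.572, n = 3). The lowest old library was about 2 times the highest young library. Its log2FC of 1.24 ± 0.19 (SE) had the lowest adjusted p of all members, 0.0557 in edgeR and 1.40e-07 in DESeq2.

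The differences of these 3 receptors did not rest on 1 library. When any 1 library was omitted, the log2FC stayed between -1.28 and -1.06 for Epha2, between -1.31 and -1.02 for Epha3 and between 1.15 and 1.31 for Ephb2, and DESeq2 called all 3 in each of the 6 refits. Without old replicate 1, edgeR called 732 genes (5.06% of all genes) and 5 of the 57 members (8.77%), which were Epha2, Epha3, Ephb2, Plxna4 and Plxnb1. The proliferation markers Mki67, Top2a, Ccnb1, Cdk1 and Pcna were also higher in that library than in the other old libraries. Their summed level was 359.7 CPM in old replicate 1, 117 and 92.3 CPM in the other old libraries and 325 to 506 CPM in young. The part of proliferation in these calls was not tested.

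The sequence upstream of these 3 genes is shown because 2 of them differed with age in the same direction and 1 in the other. The promoter table of RefSeq, on the assembly GRCr8, held entries for 45 of the 57 members. The 250 bases before each annotated start are printed 5′ to 3′ on the strand of the gene, with capitals for a match on either strand to the GC box GGGCGG, to the TEAD motif GGAATG or to the E-box CANNTG, none of which overlapped.

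Epha2, chr5:158888379-158888628, plus strand: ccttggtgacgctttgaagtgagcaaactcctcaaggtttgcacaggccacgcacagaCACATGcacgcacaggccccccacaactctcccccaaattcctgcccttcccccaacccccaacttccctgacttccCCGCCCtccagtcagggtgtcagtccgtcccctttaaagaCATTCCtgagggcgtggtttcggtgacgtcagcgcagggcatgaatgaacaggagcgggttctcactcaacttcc
Epha3, chr11:14920426-14920675, minus strand: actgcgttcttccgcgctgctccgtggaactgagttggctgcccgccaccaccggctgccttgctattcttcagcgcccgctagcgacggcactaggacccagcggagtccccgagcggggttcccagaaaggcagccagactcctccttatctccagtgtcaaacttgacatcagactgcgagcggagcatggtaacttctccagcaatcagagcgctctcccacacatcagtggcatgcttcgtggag
Ephb2, chr5:154360425-154360674, minus strand: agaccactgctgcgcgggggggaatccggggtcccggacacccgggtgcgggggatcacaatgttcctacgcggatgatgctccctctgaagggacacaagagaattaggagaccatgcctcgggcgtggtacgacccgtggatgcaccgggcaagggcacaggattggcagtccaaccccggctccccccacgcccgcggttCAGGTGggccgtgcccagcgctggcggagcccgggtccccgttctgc

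The Epha2 window held 1 GC box, 1 TEAD motif and 1 E-box, the Ephb2 window 1 E-box and the Epha3 window none of the 3. Epha2 and Epha3, which were lower together, thus shared none of these letters. A GC box was found upstream of 58.7% of the 46 entries of members and of 55.9% of the 12022 entries of genes in the count table, a TEAD motif upstream of 8.70% and 10%, and an E-box upstream of 60.9% and 57.3%. The shares over all 33469 entries were 30.5%, 12.1% and 65.5%. The CArG box, the site of serum response factor, was found for Robo1 and Sema3c (4.35% of entries, against 1.23% of those of table genes and 1.5% of all entries). The GC content of the windows was 58.4% for Epha2, 60.4% for Epha3 and 68.4% for Ephb2, compared with a median of 64.4% over the members. Such matches describe the letters only and do not show that a factor binds.

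The age groups overlapped in each of the other 6 Eph receptors. They were thus separate in 3 of the 9, beside 4227 of all 14475 genes. Ephb4, a receptor known for venous identity, had the highest CPM of the family, with 63.0, 84.9 and 64.8 CPM in young and 55.3, 67.1 and 64.2 CPM in old, and the groups overlapped. Its log2FC was -0.19 (SE 0.15, edgeR adjusted p = 0.464). Epha4 and Epha7 differed more between the libraries of an age group than between the groups. Epha4 had 92, 240 and 510 counts in young and 96, 206 and 715 counts in old. Epha7 had 12, 66 and 245 counts in young and 0, 6 and 82 counts in old, and its log2FC of -1.94 had an SE of 1.57. In both genes replicate 3 of each age group was the highest, and the replicate numbers are not known to link a young with an old culture.

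The ephrins, the ligands of these receptors, showed less. Of 7 ephrins 4 were higher (57.14%, against 52.05% of all genes) and 3 lower in old. DESeq2 called 0, beside 5.56% of all genes, and 1, which was lower, had an unadjusted p under 0.05 in edgeR, beside 11.5% of all genes. That gene was Efnb2, the ligand of Ephb4 known as a marker of arterial identity. It had 6.42, 9.04 and 13.4 CPM in young and 5.67, 3.10 and 5.65 CPM in old. The lowest young library was only slightly above the highest old one. The mean was 9.63 CPM in young and 4.81 CPM in old, a log2FC of -1.002 (SE 0.35, edgeR adjusted p = 0.177), which was -0.69 without young replicate 3. Efnb1, the ephrin with the highest CPM, had 56.2, 58.4 and 74.3 CPM in young and 50.3, 63.3 and 53.1 CPM in old, with groups that overlapped (log2FC -0.18, SE 0.15, edgeR adjusted p = 0.485). The ephrin-A genes (Efna1 to Efna5) ranged from 0.142 to 8.21 CPM, with log2FCs between -0.39 and 0.50.

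**Figure D2:**
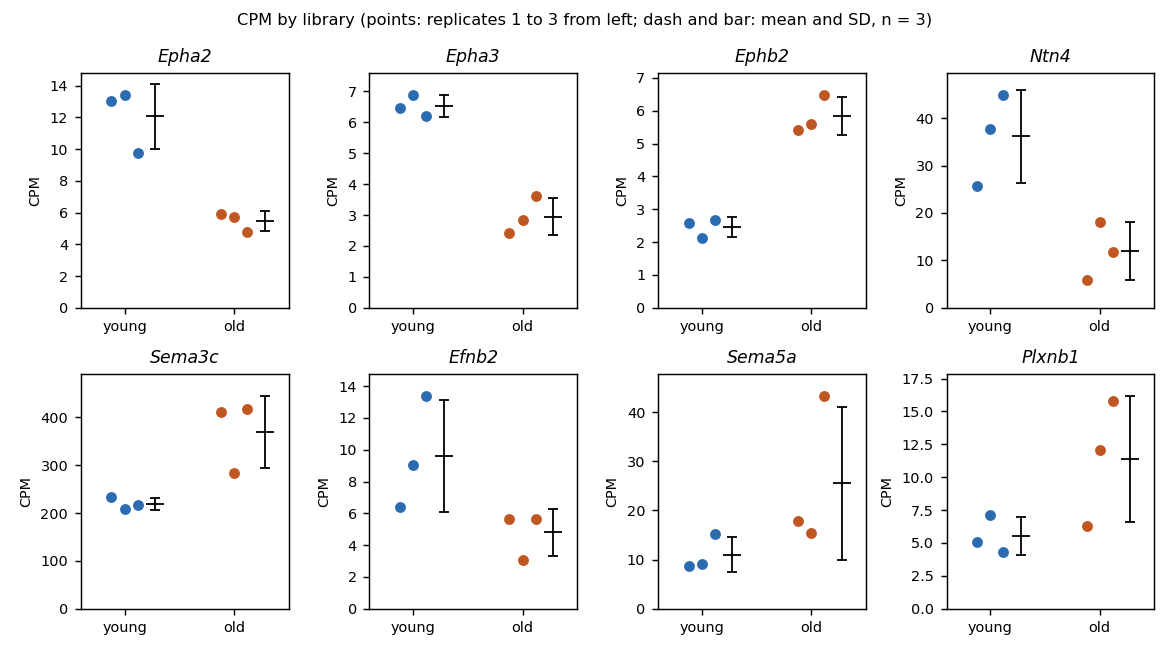
CPM (vertical axes, each from 0) of 8 guidance genes in the 3 young (blue) and 3 old (orange) libraries, with the mean and SD of each group (n = 3) as a dash and bars. The old points lie below the young for Epha2, Epha3, Ntn4 and Efnb2 and above for Ephb2, Sema3c and Sema5a, whereas the lowest old point of Plxnb1 lies within the young range.

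Netrins are secreted relatives of laminins. Netrin-4, encoded by Ntn4 (ENSRNOG00000005573), is found in vascular basement membranes and binds laminin chains. It had 25.6, 37.8 and 44.98 CPM in young and 5.95, 18.1 and 11.8 CPM in old. All old libraries lay below the young, but old replicate 2 was about 3 times old replicate 1. The log2FC of Ntn4 was -1.59 ± 0.42 (SE), with an adjusted p of 0.116 in edgeR and of 0.00316 in DESeq2. It ran from -2.03 to -1.27 over the refits without 1 library, and DESeq2 lost the call without young replicate 2 or young replicate 3. Ntn1, the founding netrin, had 2.72, 2.56 and 1.91 CPM in young and 1.05, 12.4 and 1.98 CPM in old. Its higher mean in old came from old replicate 2, and the log2FC of 1.103 had an edgeR adjusted p of 0.475. Ntn3 had between 0.529 and 1.42 CPM, with a log2FC of -0.07.

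The netrin receptors differed little. All 4 were lower in old (as were 47.95% of all genes), with log2FCs between -0.72 and -0.06, and 0 had an unadjusted p under 0.05 in edgeR (DESeq2 called 0). Unc5b, a repulsive receptor best known in endothelium, had the highest CPM of the 4. It had 265, 314 and 389.6 CPM in young and 232, 193 and 319.6 CPM in old. Old replicate 3 was above the lower 2 young libraries, and the log2FC was -0.38 (SE 0.23, edgeR adjusted p = 0.352). Neogenin, encoded by Neo1, had between 95.9 and 128 CPM in young and between 89.6 and 128 CPM in old, and Unc5c between 5.73 and 7.55 CPM and between 4.71 and 8.02 CPM. The age groups overlapped in all 4 (they were separate in 4227 of all 14475 genes).

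Semaphorins are secreted (class 3), transmembrane (classes 4 to 6) or GPI-anchored (class 7) cues. In old VSM cells 15 of the 20 semaphorins were higher (75.0%, against 52.05% of all genes) and 5 were lower, and the median log2FC was 0.56. In edgeR 3 of the 20 that were higher and 1 that was lower had an unadjusted p under 0.05, beside 11.2% and 11.5% of all genes. DESeq2 called 0 at both thresholds, beside 5.56% of all genes. Sema3c (ENSRNOG00000006526), a secreted cue that binds both neuropilins, had the highest CPM of the family. It had 233, 208 and 216 CPM in young and 411, 283 and 417 CPM in old, so the old libraries lay above the young. The log2FC of Sema3c was 0.76 (SE 0.17, edgeR adjusted p = 0.0942). DESeq2 gave it an adjusted p of 0.00275, with a fold change under the limit of 2.

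Sema5a, a transmembrane semaphorin with thrombospondin repeats, had 8.77, 9.08 and 15.2 CPM in young and 17.8, 15.3 and 43.4 CPM in old. The groups were separate by a narrow margin, and old replicate 3 was far above the other old libraries. A log2FC of 1.21 (SE 0.45, edgeR adjusted p = 0.191) became 0.59 without old replicate 3. Sema6c had an unadjusted p under 0.05 in edgeR as well, at 1.28 to 1.84 CPM in young and 1.77 to 3.67 CPM in old, with groups that overlapped and a log2FC of 0.89 (edgeR adjusted p = 0.194). Sema4g was the one that was lower, with 11.03, 12.5 and 9.36 CPM in young and 6.01, 8.06 and 6.997 CPM in old. Those groups did not overlap, and its log2FC was -0.64 (SE 0.17, edgeR adjusted p = 0.123). The secreted Sema3e, a ligand of plexin D1, had 10.4, 19.1 and 17.5 CPM in young and 5.77, 7.503 and 16.1 CPM in old, and the groups overlapped (edgeR adjusted p = 0.372). The largest log2FC of the 20, 1.86 for Sema6d and 1.59 for Sema3a, were those of genes with at most 79 and 36 counts in any library.

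Plexins are the receptors of semaphorins, class A mainly with neuropilins for class 3 and class B mainly for class 4. Of 7 plexins 6 were higher in old (85.71%, against 52.05% of all genes), with a median log2FC of 0.64. In edgeR 2 of these and the single lower one had an unadjusted p under 0.05, beside 11.2% and 11.5% of all genes (DESeq2 called 0, beside 5.56%). Plxnb1 had 5.10, 7.11 and 4.32 CPM in young and 6.27, 12.1 and 15.8 CPM in old. Old replicate 1 lay among the young libraries and the other old libraries above them. The log2FC was 1.05 (SE 0.37, edgeR adjusted p = 0.177), or 1.34 (edgeR adjusted p = 0.0418) when old replicate 1 was omitted. Plxna4 had the same order, with 9.13, 14.9 and 10.9 CPM in young and 9.25, 29.6 and 39.1 CPM in old, and a log2FC of 1.16 (edgeR adjusted p = 0.233) that was 1.56 (edgeR adjusted p = 0.0315) without old replicate 1.

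Plxna3 was higher by a smaller amount but in each old library, at 15.9, 12.7 and 14.2 CPM in young and 23.7, 23.0 and 17.8 CPM in old (log2FC 0.59, SE 0.15, edgeR adjusted p = 0.114). Plxnb2, the plexin with the highest CPM, was the one that was lower. It had 358, 403 and 415 CPM in young and 338, 308 and 326 CPM in old, a log2FC of -0.27 (SE 0.11, edgeR adjusted p = 0.200). Plxna2 was at 6.82 to 8.11 CPM in young and at 8.22 to 19.5 CPM in old, also without overlap (log2FC 0.75), and its unadjusted p was 0.0609 in edgeR and 0.0380 in DESeq2. In Plxnb2 the old libraries lay below the young, and the difference was the smallest among the members whose groups were separate.

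Neuropilins bind class 3 semaphorins and also VEGF. Nrp2 had 197, 242 and 228 CPM in young and 269, 289.8 and 541 CPM in old. The old libraries lay above the young, and old replicate 3 was nearly 2 times the others. A log2FC of 0.72 (SE 0.28, edgeR adjusted p = 0.206) became 0.33 without it. Nrp1 overlapped between the ages, with 118, 125 and 148 CPM in young and 106, 86.1 and 295 CPM in old, where again only old replicate 3 was high (edgeR adjusted p = 0.699).

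Slits are large secreted ligands, and Robo1 and Robo2 are their receptors. Both Slits and both Robo genes were higher in old (as were 52.05% of all genes). Only Robo1 had an unadjusted p under 0.05 in edgeR, beside 11.2% of all genes that were higher (DESeq2 called 0 of the 4). Robo1 had 13.4, 19.03 and 20.1 CPM in young and 27.7, 20.6 and 40.2 CPM in old. Old replicate 2 was just above the highest young library. For Robo1 this was a log2FC of 0.75 (SE 0.28, edgeR adjusted p = 0.186), and of 0.47 once old replicate 3 was omitted. Slit3 had 305, 429.5 and 477 CPM in young and 377, 535 and 649 CPM in old, with groups that overlapped (log2FC 0.37, SE 0.25, edgeR adjusted p = 0.410). Slit2 had between 73.5 and 163 CPM in young and between 93.7 and 182 CPM in old. Robo2 spread over more than 5-fold within each age, with 6.07, 13.8 and 34.3 CPM in young and 11.6, 6.91 and 51.3 CPM in old.

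**Figure D3:**
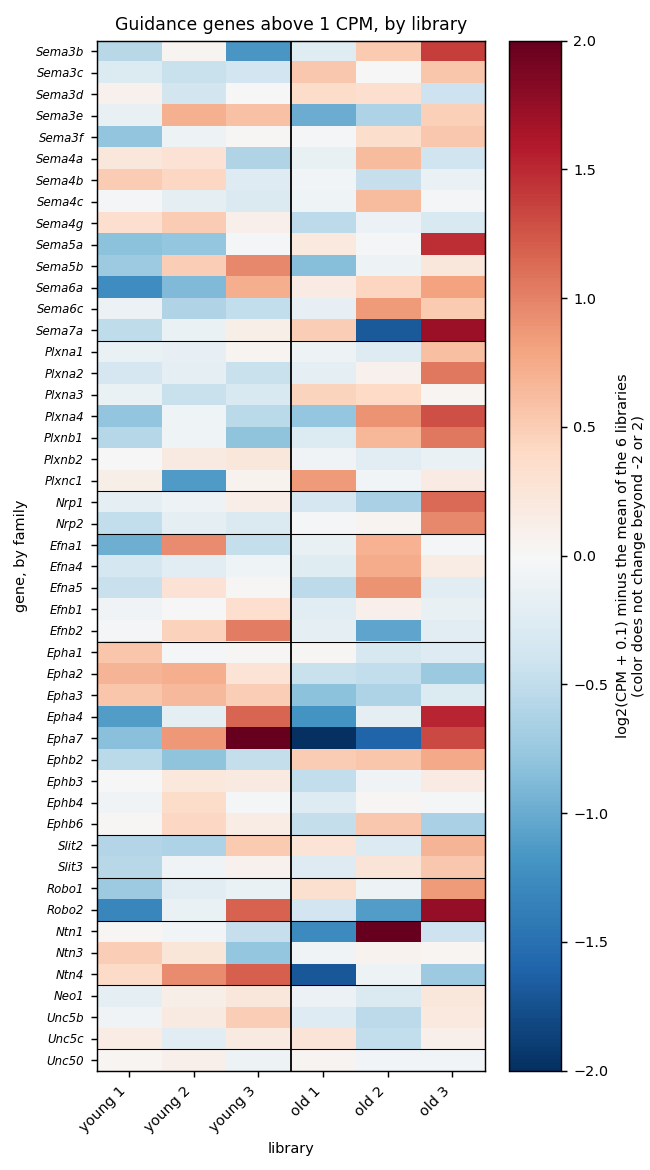
Deviation of log2(CPM + 0.1) from the mean of the 6 libraries (color, not changing beyond -2 or 2) for the 48 members above a mean of 1 CPM, by library (columns) and family (rows, Unc50 last). Epha2 and Epha3 are blue and Ephb2 is red in each old column, and the column of old replicate 3 is red for most semaphorins, plexins, neuropilins, Slits and Robo receptors.

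Old replicate 3 stood apart in these families. It had the highest level of the 6 libraries in 22 of the 57 members (38.6%), compared with 23.9% of all genes. The median log2FC of the members was 0.23 with all libraries and 0.03 without old replicate 3. Without that library 5 members with an unadjusted p under 0.05 in edgeR were higher and 10 lower, in place of 8 and 6. The matching shares and median over all genes without that library are not given here, so these shifts are not read as particular to the members. The fibroblast marker sum of old replicate 3, 914 CPM, lay between those of the other old libraries, and its VSM marker sum of 3523 CPM close to the 3442 CPM of old replicate 2. The Epha2, Epha3, Ephb2 and Ntn4 differences without it were -1.06, -1.31, 1.16 and -1.58.

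Ratios of genes within a library do not depend on how libraries are scaled to each other. The counts of Ephb2 divided by those of Epha2 were 0.199, 0.158 and 0.276 in young and 0.918, 0.983 and 1.37 in old, higher by 2.38 on the log2 scale (pooled SD 0.36). Ephb2 over Epha3 went from 0.401, 0.308 and 0.433 to 2.23, 1.98 and 1.80, or 2.41 on the log2 scale (pooled SD 0.21). Both ratios were on average more than 5-fold higher in old (5.21-fold and 5.30-fold). In contrast, Efnb2 over Efnb1 was 0.114, 0.155 and 0.181 in young and 0.113, 0.0489 and 0.106 in old, with old replicate 1 almost at the lowest young value. Plxnb1 over Plxnb2 was higher in old by 1.25 and Sema3c over Sema3e by 1.51 on the log2 scale, while Nrp2 over Nrp1 overlapped between the ages. The two-sided exact permutation test of 3 libraries against 3 gave p = 0.1 for each of the 5 ratios that were separate, which is the smallest value the design allows, and p = 0.2 for Nrp2 over Nrp1 (6 ratios, without adjustment). The gene pairs were chosen after their values were seen. Ephb2 was higher, and Epha2 and Epha3 lower, in every old library than in every young one. For both Ephb2 ratios the separation and its p were therefore fixed in advance and add no support.

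**Figure D4:**
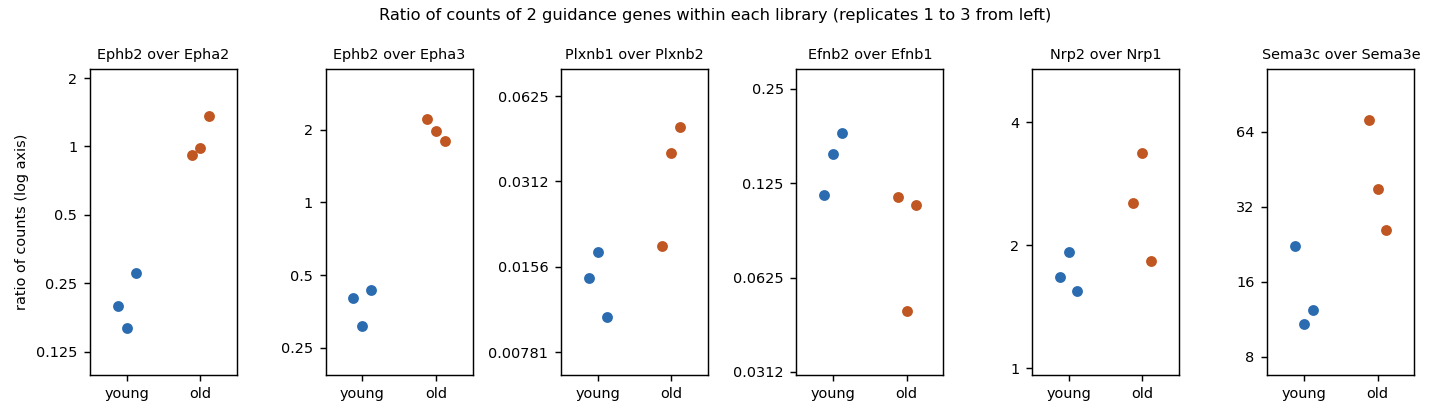
Ratio of the counts of pairs of guidance genes (vertical axes, log scale) in the 3 young (blue) and 3 old (orange) libraries. Ephb2 over Epha2 and Ephb2 over Epha3 lie below 0.5 in each young library and above 0.9 in each old library, and Nrp2 over Nrp1 overlaps.

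Guidance receptors reach the cytoskeleton through a shared set of intracellular proteins. A list of 40 such effectors had 37 genes in 38 rows of the table, since Mical2 has 2 rows. In old VSM cells 26 of these rows had a lower mean and 12 a higher one, and the median log2FC was -0.38, beside 0.02 for all genes. An unadjusted p under 0.05 in edgeR was found for 12 rows that were lower (31.6%, against 11.5% of all genes) and 3 that were higher (7.89%, against 11.2%). DESeq2 called 3 rows lower (7.89%, against 3.31%) and 1 higher (2.63%, against 2.25%), while edgeR called 0. Fyn, a Src family kinase that acts below several of these receptors, had 38.2, 38.8 and 41.1 CPM in young and 69.0, 89.0 and 87.0 CPM in old. Its log2FC was 1.05 (SE 0.12, edgeR adjusted p = 0.0531). The young libraries were nearly equal, and the lowest old library lay far above them.

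Chn1 encodes α-chimaerin, a Rac GTPase-activating protein that acts below Eph receptors. It had 18.9, 21.1 and 18.8 CPM in young and 8.87, 8.46 and 4.07 CPM in old, a log2FC of -1.46 (SE 0.30, edgeR adjusted p = 0.0768). Dpysl3, of the collapsin response mediator proteins, had 343, 447 and 402 CPM in young and 166, 153 and 232 CPM in old (log2FC -1.11, edgeR adjusted p = 0.0638). Fes, a tyrosine kinase, had 3.57, 4.57 and 2.61 CPM in young and 1.37, 0.962 and 0.821 CPM in old (log2FC -1.77, edgeR adjusted p = 0.0651). The old libraries lay below the young in all 3 genes. The 4 called effectors had the same direction in every refit without 1 library. DESeq2 called Chn1, Dpysl3 and Fes in each of these refits. It lost the call of Fyn without old replicate 2 or old replicate 3, and the edgeR log2FC of Fyn was 0.98 without old replicate 2.

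A list of 11 other cues and coreceptors had 7 genes in the table, of which 5 were higher and 2 lower in old, 2 of those that were higher had an unadjusted p under 0.05 in edgeR (28.6%, against 11.2% of all genes), and DESeq2 called the same 2 (against 2.25% of all genes), Rgma and Draxin. Rgma encodes a GPI-anchored ligand of neogenin. It had 15.5, 14.8 and 14.9 CPM in young and 30.4, 44.4 and 30.3 CPM in old, a log2FC of 1.22 (SE 0.17, edgeR adjusted p = 0.0531). Each old library was about 2 times the young level or more, whereas the level of its receptor gene Neo1 overlapped between the ages. Draxin, a secreted cue that binds netrin receptors, had 5, 6 and 3 counts in young and 133, 131 and 10 counts in old. Its log2FC was 4.27 (SE 1.02, edgeR adjusted p = 0.104), and old replicate 3 was much closer to the young libraries than to the other old ones.

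**Figure D5:**
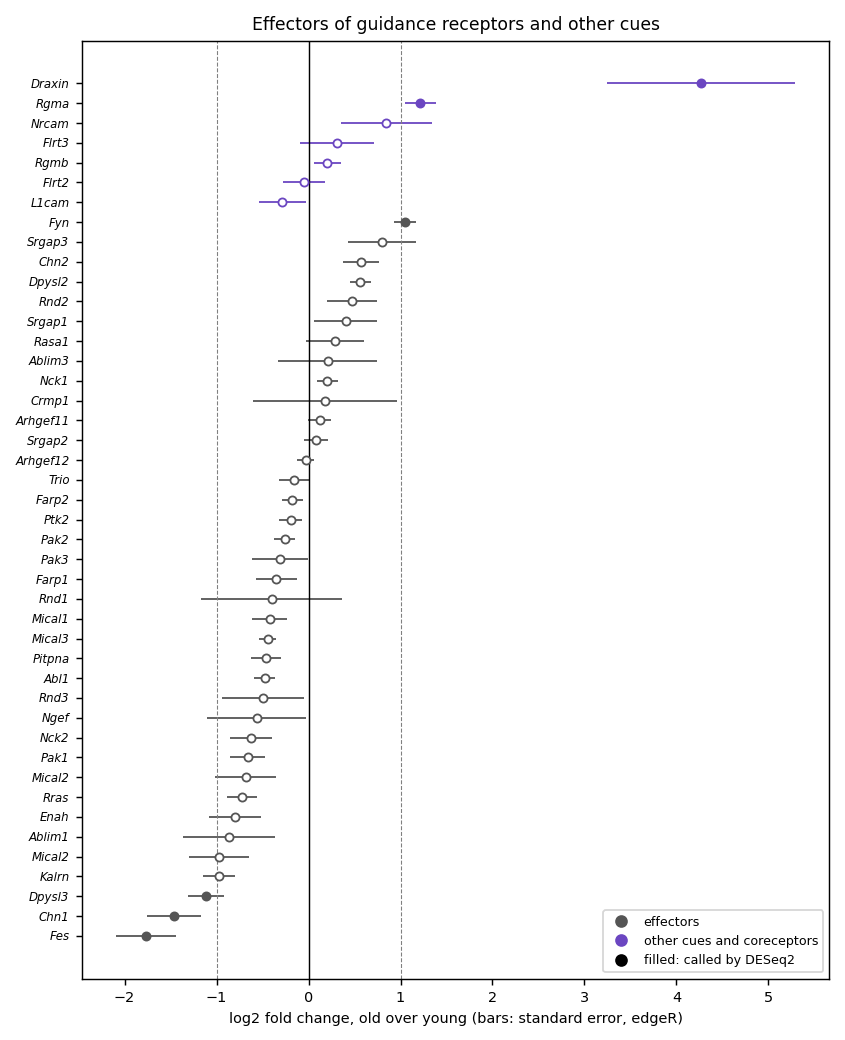
Log2 fold change of old over young VSM cells (horizontal axis) with standard errors from edgeR for 37 of the effector rows (grey) and the other cues and coreceptors (purple), filled where DESeq2 called the gene. Fyn, Rgma and Draxin are the filled points to the right of 1, and Dpysl3, Chn1 and Fes those to the left of -1.

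Cell type markers were read in the same libraries. The VSM markers Acta2, Myh11, Tagln, Cnn1, Smtn and Lmod1 were present in every library, with a summed level from 11176 to 20882 CPM in young and from 3442 to 5551 CPM in old, and all 6 were lower in old. Of 10 endothelial markers 7 were in the table. Their sum was 36.1 to 45.4 CPM in young and 33.0 to 44.4 CPM in old, Pecam1 had at most 0.765 CPM, and Cdh5, Tie1 and Emcn had no row. The sum hides single genes, of which 3 were higher and 4 lower in old. Erg was lower without overlap (log2FC -2.03, edgeR adjusted p = 0.159) and was called by DESeq2 (adjusted p = 0.0194). Of 8 fibroblast markers 7 were in the table, all higher in old, with a sum of 192 to 500.2 CPM in young and of 579 to 1469 CPM in old. Schwann and neural markers (5 of 8 in the table, without Sox10 and Foxd3) summed to 29.8 to 84.6 CPM in young and 62.9 to 95.7 CPM in old, and pericyte markers (3 of 5) to 901 to 1291 CPM and 666 to 1509 CPM. Of the pericyte markers 1 was higher and 2 were lower in old. Cspg4 was lower without overlap (log2FC -1.40, edgeR adjusted p = 0.0853) and was called by DESeq2 (adjusted p = 0.000341). Macrophage markers (2 of 8) reached 2.91 CPM and skeletal muscle markers (1 of 8) 2.46 CPM at most. In all 6 VSM markers the old libraries lay below the young, as in 14.7% of all genes. In 2 of the 7 fibroblast markers, Pdgfra and Dcn, they all lay above, as in 14.5% of all genes. The age groups overlapped in the other 5. Dcn (log2FC 4.58, edgeR adjusted p = 0.156) was called by DESeq2 (adjusted p = 0.0185). Pdgfra had a log2FC of 0.99 (edgeR adjusted p = 0.159, DESeq2 adjusted p = 0.0306). The part of these cell type markers in the differences of Epha2, Epha3, Ephb2 and Ntn4 was not tested.

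All 57 genes had passed the low-count filter of the deposited table, and 50 of them had at least 10 counts in all 6 libraries. Sema3a and Unc5a reached 10 counts in exactly 3 libraries, which were never the 3 of 1 age group.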

How the data were processed

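Stranded libraries were prepared from polyadenylated RNA of cultured VSM cells, 3 young and 3 old, and sequenced from both ends. The authors trimmed reads with Trim Galore 0.6.7 (Cutadapt 3.5), aligned them with STAR 2.7.10b to Rnor 6.0 and counted them per gene with featureCounts (Subread 2.0.8). The deposited values are raw counts without normalization. Each library totalled 44235674 to 59700887, which is above the sequencing depth per sample that the study gives. Even values made up 68.7% to 71.1% of counts between 1 and 19, so both mates of a pair may have been counted and counting error may exceed what the counts imply. The study's methods name a RefSeq annotation, whereas the deposited table carries Ensembl identifiers, so the annotation behind the counts is uncertain. The sources used here do not give the strand, mate or multi-mapping settings, so genes with overlapping or antisense neighbors are uncertain.

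CPM were counts scaled to the TMM-normalized library size. Old was compared with young in R 4.3.3 by edgeR 4.0.16 (quasi-likelihood F test, Benjamini-Hochberg over all 14475 genes) without covariates. A gene was called at an adjusted p under 0.05 with a log2FC of 1 or more in size. Its SE was the size of the log2FC over the root of F. DESeq2 1.42.0 and limma-voom (limma 3.58.1) were alternatives, next to other scalings, filters and omitted libraries. The scripts were tested on simulated data. The 57 members, the families, the lists and the naming rule were chosen with earlier results of these data known. Values by library are given for members called by edgeR or DESeq2, for those with an unadjusted p under 0.05 and a log2FC of 1 or more in size, and for the member with the highest CPM of each family. Other members stand beside these, and some of them and the gene ratios were chosen after their values were seen. Accessory lists are represented by the genes DESeq2 called, and 1 effector is not reported here.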

Additional observations from a re-analysis of the deposited data

How the results depend on the processing

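The number of guidance genes past both thresholds was 0 in edgeR and depended on the test and on single libraries. It was 4 with DESeq2 (805 of all 14475 genes). It was 3 with edgeR at an adjusted p under 0.1 (the number over all genes at that limit is not given here). With each library left out in turn it was between 0 and 5 in edgeR, with 5 only without old replicate 1, and between 3 and 10 in DESeq2 (chosen after seeing the data). DESeq2 called 10 members without old replicate 1 (1377 of all 14475 genes), 7 without old replicate 2 (614) and 6 without old replicate 3 (651). It called 5 without young replicate 1 (737 of all genes), 5 without young replicate 3 (600) and 3 without young replicate 2 (551). The member counts thus moved with the number of genes called over the whole table, most of all without old replicate 1. RLE size factors, library size only, both filters on low counts, halved counts and limma-voom gave 0. The number at an unadjusted p under 0.05, 14 in edgeR, lay between 10 and 19 in edgeR under all alternatives, was 12 in limma-voom and 18 in DESeq2, and was between 12 and 22 in DESeq2 with a library left out. The matching shares of all genes in the refits with a library left out are not given here. The median log2 fold change of the members lay between 0.02 and 0.41 over the settings run, with the lowest values without old replicate 3 and the highest without old replicate 1. Without Unc50 (chosen after seeing the data) it was 0.27. Over 24 genes and 478 refits, 397 kept their side of the thresholds, 81 passed them in the same direction and 0 changed sign. The 24 were members with an unadjusted p under 0.05 in edgeR or the highest CPM of their family, and accessory genes called by DESeq2. Most were thus chosen for their difference, which favors a kept sign. None was called in the main edgeR fit, so no call could be lost. Nrp1, Robo2, Ntn1 and Epha4 were not among the 24. With the replicate number as a block (replicate block), 19 members had an unadjusted p under 0.05 and 0 were called. The correlations of the deviations of libraries with the same number were 0.03, 0.26 and 0.26, and not every library correlated best with its own number, so the numbers were not taken as pairs. Sema6d, at a mean under 1 CPM and with 4 counts in old replicate 2 against 40 and 79 in the other old libraries, was called by DESeq2 only when old replicate 2 was left out (log2 fold change 2.41, adjusted p = 0.00925). The 3 libraries per age group limit all statements.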
